A study of Mus musculus with 54 samples.

Results

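The cortex and the striatum of the same wild-type (WT) mice were compared, gene by gene, in bulk RNA-seq counts of polyA RNA. All 8 WT mice of the study were used, each with 1 cortex and 1 striatum library, which gives 16 of the 54 libraries deposited. The mice were littermates, on a C57BL/6 background and 8 weeks old, of heterozygous Mbd5+/GT animals, in which a gene trap in the second intron of Mbd5 makes a hypomorphic allele. They came from 3 litters (3, 1 and 4 mice) and were 5 females and 3 males, and none was treated. The frozen tissue was pooled over all cells of a dissected piece, so every value is an average over the cell types in that piece. For 2 mice, M751 and M752, the label of the striatum library marks it as repeated. The methods put the collection of each tissue type on the same day, without saying whether the regions shared it. If they did not, region and collection day cannot be told apart.

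The cortex is a layered sheet in which most neurons are glutamatergic projection neurons, born in the dorsal telencephalon, together with a minority of GABA interneurons. The striatum is a ventral telencephalic nucleus in which most neurons are GABAergic projection neurons, and these read dopamine through the receptors Drd1 or Drd2 and through cyclic AMP. It is crossed by bundles of myelinated axons, lies against the lateral ventricle with its ependyma and neurogenic zone, and holds large cholinergic interneurons, whereas the cortex has the meninges on its surface.

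The regional labels were checked against marker genes before any comparison. By genes of striatal dopamine and cyclic AMP signalling, the striatum libraries of M754 and M761 went against the labels. In the striatum of M754 the dopamine receptor gene Drd2 had a normalized count of 84.5 and Adora2a, the adenosine receptor gene of Drd2 neurons, one of 193.5, whereas the 6 striatum libraries other than those of M754 and M761 held at least 2460.0 and 5111.7. In M761, Drd2 had 523.8 in the striatum and 1167.6 in the cortex. Normalized counts are read counts scaled by library size with the trimmed mean of M-values. Cortex libraries carried striatal markers in differing amounts, from 33.0 (M754) and 74.8 (M751) to 1250.3 (M752) for Drd2. The sum over 26 genes of striatal dopamine and cyclic AMP signalling was 57856 to 195452 in cortex and 54149 to 627571 in striatum, with none of the genes at 0 in every library. It was higher in the striatum in 6 of 8 mice, all but M754 and M761. Counts over all genes, most gene lists and most striatal signalling genes are therefore given with all 8 mice and with the 6 mice that remain without M754 and M761. M754 and M761 were left out for their striatal markers, after the data were seen. Larger differences and smaller adjusted p values of striatal genes with 6 mice are therefore in part set by that choice. They are given as a description and not as a test. On the first principal component, 39.2% of the variance, the cortex libraries scored from 12.2 to 60.6 and the striatum libraries from -71.4 to -10.7. Striatum of M754 and M761 stood apart on the second (15.3%), at -63.8 and -59.2. Other markers of these mice went with the labels. Summed transcription factors of cortical projection neurons were higher in cortex (67173 against 33984 in M754, 46870 against 21412 in M761). Summed oligodendrocyte genes were higher in striatum (228649 against 109595 in M754, 281890 against 144540 in M761).

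**Figure D1:**
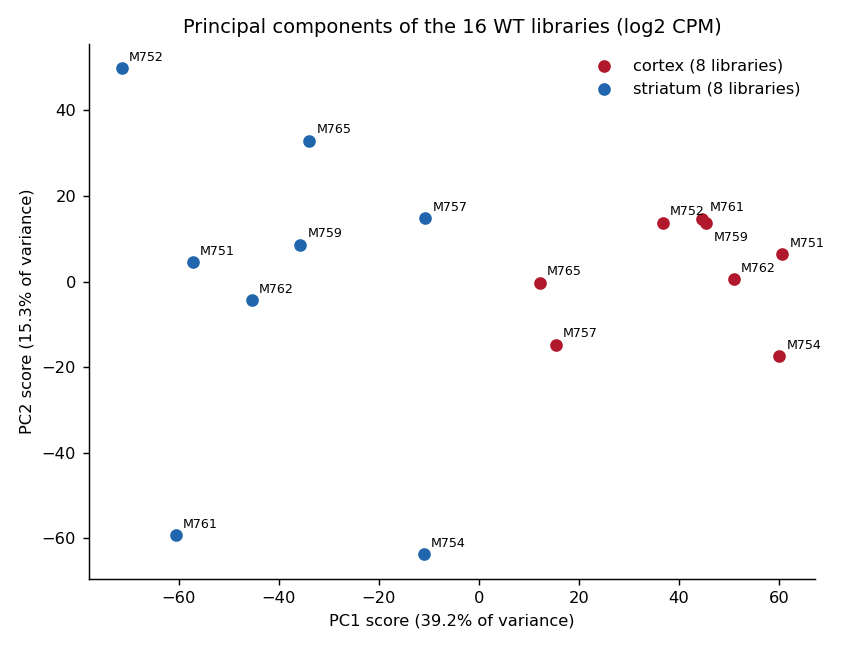
Principal component scores of the 16 WT libraries from log2 CPM of 18490 genes, cortex in red and striatum in blue, labelled by mouse. The first component separates the regions, with cortex between 12.2 and 60.6 and striatum between -71.4 and -10.7, and the striatum libraries of M754 and M761 lie far below the rest on the second.

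Depth was alike in the regions, with 25295973 to 33917642 reads on genes in cortex (median 31104383) and 27468285 to 32110274 in striatum (median 28887050). Of 18490 genes tested with the mouse as a block, 4473 were higher in cortex, which is 24.2%, and 4709 were higher in striatum, 25.5% (49.7% in all), at an adjusted p under 0.05 (edgeR's quasi-likelihood test, Benjamini-Hochberg). Differences of at least 2-fold among these numbered 1079 toward cortex (5.84% of the genes tested) and 720 toward striatum (3.89%), together 9.73%. Without M754 and M761, 3396 (18.4%) and 3068 (16.6%) genes were called, 35% in all, and 6074 of the calls from 8 mice were among them in the same direction. All differences below are log2 values of cortex minus striatum, so a negative value is a gene higher in striatum. The median over all genes was -0.02. For 1464 genes, 7.92%, the 8 libraries of one region lay entirely above the 8 of the other. In 9.77% of genes the cortex was higher in 8 of 8 mice, and in 11% the striatum was. In bulk tissue, fewer cells of a type and less RNA per cell cannot be told apart.

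The differences followed the GC content and the length of the genes, both taken from the longest annotated transcript of each gene. Among 13833 protein-coding genes with a mean log2 CPM above 0, the median difference was 0.43 in the quintile of lowest GC content (median 41.5%) and -0.34 in the highest (58%). It was -0.41 in the quintile with the shortest transcripts (median 1531 bases) and 0.41 in the longest (6984 bases). In the GC-poorest quintile 60.4% of genes were called higher in cortex and 6.18% higher in striatum, against 5.85% and 53% in the GC-richest. The tilt was present in 7 of 8 mice, where the median of the GC-poorest quintile lay between 0.39 and 0.64, and was absent in M757, at -0.07. ERCC spike-in RNA moved with the regions too, at 0.0449% to 0.179% of a cortex library and 0.129% to 0.728% of a striatum library, and was higher in the striatum in 7 of 8 mice, M757 again being the exception. The part of either in the results below was not tested apart from a fit with each library corrected for GC content and length. That fit called 3568 genes higher in cortex (19.3%) and 3357 higher in striatum (18.2%), 37.5% in all, and 30.5% were called when M754 and M761 were also left out. Of the uncorrected calls, 4792 (52.2%) remained in the same direction and 163 were called in the opposite one. Values from it are given as corrected.

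**Figure D2:**
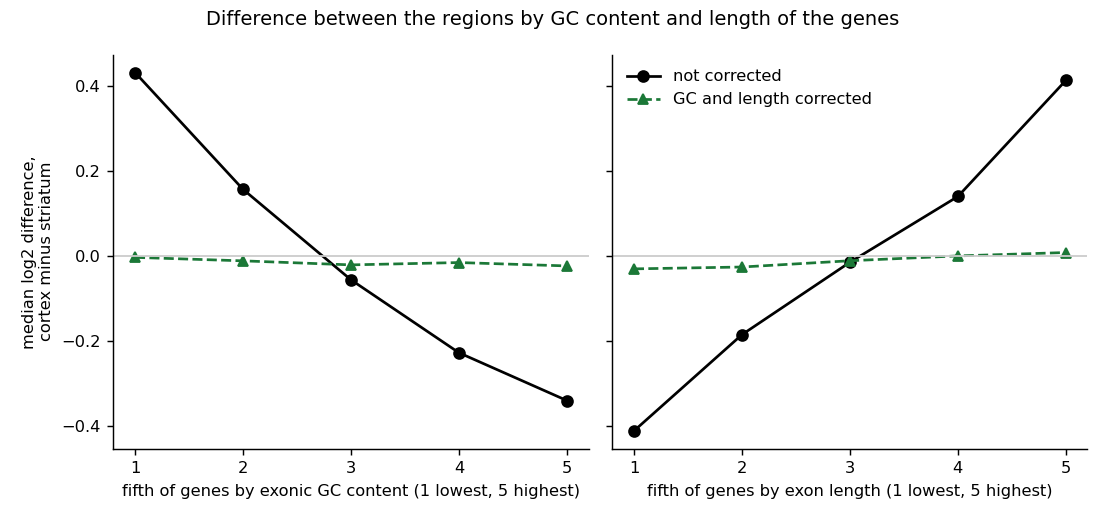
Median log2 difference, cortex minus striatum in 8 WT mice, in quintiles of protein-coding genes by GC content (left) and by length (right). Both are those of the longest annotated transcript, labelled exonic GC content and exon length in the panels. Lines join the quintiles before (black) and after (green) correction of each library. Without correction the median runs from 0.43 to -0.34 with rising GC content and from -0.41 to 0.41 with rising length.

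Genes of striatal dopamine and cyclic AMP signalling were mostly higher in striatum. Of 26 tested, 15 were called higher in striatum and 0 in cortex with 8 mice, beside 25.5% and 24.2% of all genes, and 23 and 0 without M754 and M761. The median difference was -1.15 with 8 mice and -1.79 with 6, beside medians over all genes of -0.02 and 0.01. After correction 12 and 0 were called, with a median of -1.15. With 6 mice the shares over all genes were 16.6% toward striatum and 18.4% toward cortex, and corrected they were 18.2% and 19.3%. Counts with 6 mice and corrected counts of the lists below stand beside these shares too.

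Among the receptors, Drd2, the inhibitory dopamine receptor gene on chromosome 9 (49340627 to 49408177, GRCm38), had a lowest, median and highest normalized count of 33.0, 671.1 and 1250.3 in cortex and of 84.5, 2614.4 and 6322.7 in striatum. It was higher in striatum in 7 of 8 mice, M761 being the exception, and the ranges overlapped. The difference was -2.07 ± 0.55 (SE, adjusted p = 0.011), -2.58 without M754 and M761 (adjusted p = 0.0049) and -1.78 corrected (adjusted p = 0.034). By litter it was -1.09, -1.74 and -2.86. Drd1, the stimulatory receptor gene of the direct pathway, had 264.1, 1978.5 and 3553.8 in cortex and 347.8, 5008.8 and 8653.6 in striatum. Its difference of -1.12 ± 0.48 did not pass with 8 mice (adjusted p = 0.073). With the 6 mice, a choice made on such markers, it was -1.65 (adjusted p = 0.0073). Adora2a had 101.2, 1633.1 and 2655.0 in cortex and 193.5, 5998.3 and 13252.7 in striatum, a difference of -1.85 ± 0.62 (adjusted p = 0.030). The cortex maxima of these receptor genes thus lay below the striatum medians. The constitutively active receptor gene Gpr6 differed by -1.98 ± 0.51 (adjusted p = 0.0094), and by -2.48 with 6 mice (adjusted p = 0.0034).

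Downstream of the receptors, Ppp1r1b, which encodes the phosphatase inhibitor DARPP-32, had 1526.1, 10282 and 14518 in cortex and 1665.2, 38258 and 79944 in striatum. The striatum was higher in 7 of 8 mice, by -1.69 ± 0.51 (adjusted p = 0.020). With 6 mice this was -2.34 (adjusted p = 0.0019), and corrected it was -1.27 and did not pass (adjusted p = 0.092). Rgs9, an accelerator of G protein inactivation, differed by -1.56 ± 0.51 (adjusted p = 0.028), and by -2.11 with 6 mice (adjusted p = 0.0051). Gng7, a G protein gamma subunit, and Adcy5, the adenylyl cyclase of striatal neurons, differed by -1.33 ± 0.40 (adjusted p = 0.018) and -1.16 ± 0.34 (adjusted p = 0.017). With 6 mice these were -1.81 (adjusted p = 0.0033) and -1.63 (adjusted p = 0.0016). Gnal, the olfactory type G protein alpha subunit that couples Drd1 and Adora2a to Adcy5, gave -0.47 ± 0.25 with 8 mice (adjusted p = 0.13) and -0.83 with 6 (adjusted p = 0.0081). Pde1b, a calcium-dependent phosphodiesterase, differed by -1.36 ± 0.38 (adjusted p = 0.013), and by -1.89 with 6 mice (adjusted p = 0.0013). Pde10a, the phosphodiesterase most associated with striatal neurons, gave -0.78 ± 0.60 (adjusted p = 0.30) and -1.51 without M754 and M761 (adjusted p = 0.0052). Syndig1l differed by -2.18 ± 0.58 (adjusted p = 0.011), and by -2.80 with 6 mice (adjusted p = 0.0028).

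**Figure D3:**
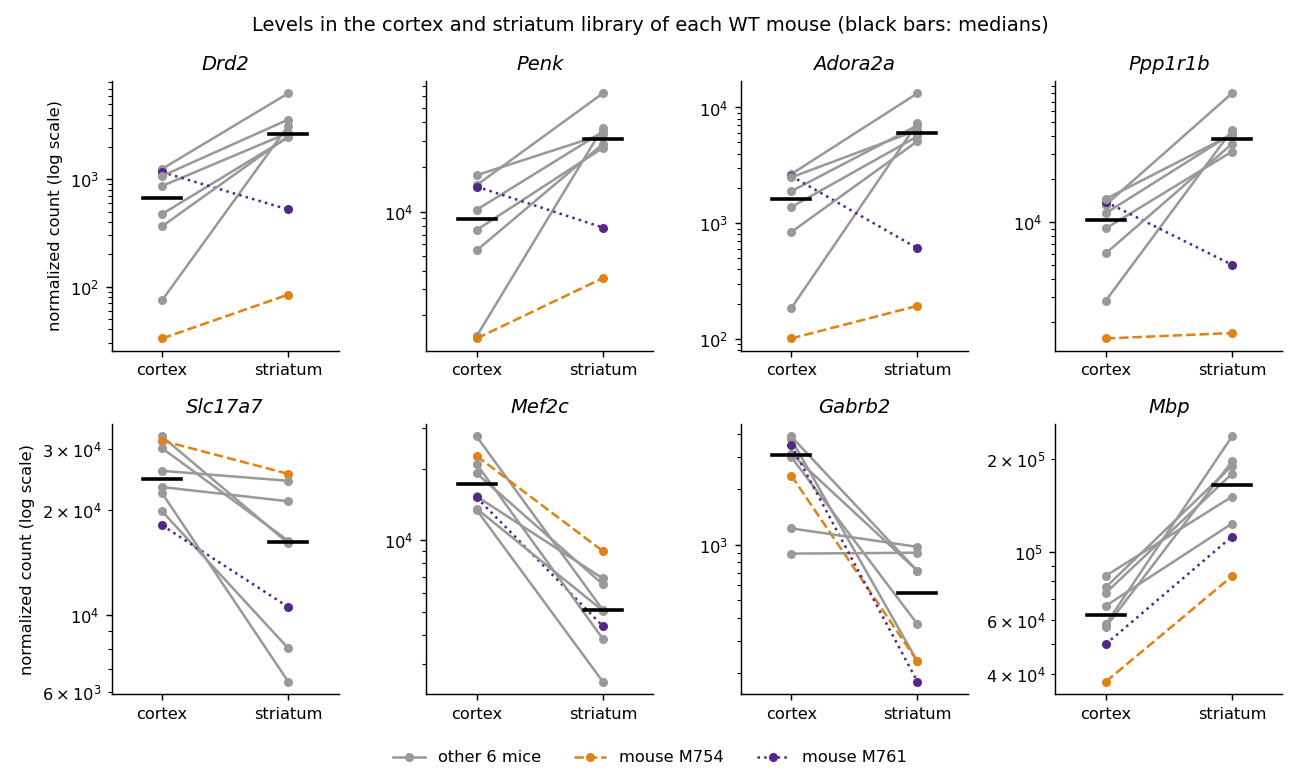
Normalized counts on a log axis in the cortex and striatum library of each WT mouse, joined by a line per mouse, for 8 genes, with black bars at the medians. The striatal genes Drd2, Penk, Adora2a and Ppp1r1b (top) were higher in the striatum except in M761 (dotted) and were low in both regions of M754 (dashed). Slc17a7 and Mef2c were lower in the striatum and Mbp was higher there in all 8 mice, and Gabrb2 was lower in the striatum in 7 of 8.

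Of 16 transcription factors of striatal projection neurons, 9 were higher in striatum and 0 in cortex with 8 mice (median -0.83). The shares over all genes were 25.5% and 24.2%. With 6 mice 13 and 0 were called (median -0.97). Corrected, 10 and 0 were called with a median of -1.03. Dlx6, a homeobox gene of ventral telencephalic neurons, had 133.5, 369.3 and 598.6 in cortex and 600.3, 984.4 and 1480.9 in striatum. These ranges did not overlap, and the difference was -1.44 ± 0.22 (adjusted p = 0.0010). Sp9, a zinc finger gene needed by Drd2 neurons, differed by -1.11 ± 0.15 (adjusted p = 0.00063), higher in striatum in 8 of 8 mice. So was Six3, by -1.58 ± 0.45 (adjusted p = 0.015), although its lowest striatum library, M754, held 15.7. Rxrg, a retinoid X receptor gene, had 72.0, 725.2 and 1089.5 in cortex and 345.8, 2793.3 and 9537.0 in striatum, a difference of -2.22 ± 0.54 (adjusted p = 0.0078). Meis2 differed by -0.73 ± 0.21 (adjusted p = 0.013). Rarb, a retinoic acid receptor gene with 38.4% of its exons under another gene, gave -1.09 ± 0.43 (adjusted p = 0.056) with 8 mice and -1.62 (adjusted p = 0.0057) with 6. Bcl11b (Ctip2), Foxp1 and Foxp2, which projection neurons of both regions express, gave -0.31, -0.13 and -0.24 with 8 mice, none past the threshold, and Bcl11b and Foxp1 passed with 6 (-0.65 and -0.58).

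Of 22 transcription factors of cortical projection neurons, 15 were higher in cortex and 1 in striatum, beside 24.2% and 25.5% of all genes. The median was 1.00. With 6 mice 15 and 2 were called (median 1.13), and corrected 16 and 1 (median 0.76). For 6 of the 22 the regions did not overlap, beside 7.92% of all genes. Mef2c, a MADS box factor on chromosome 13 (83504034 to 83667080), had 13448, 17287 and 27513 in cortex and 2528.1, 5066.5 and 9013.7 in striatum. Every cortex library lay above every striatum library, and the difference was 1.82 ± 0.17 (adjusted p = 0.00018), 1.94, 1.43 and 1.83 in the 3 litters and 1.19 corrected. Bhlhe22, a repressor of upper and deep layer neurons, had 522.9, 692.0 and 829.6 in cortex and 44.4, 197.0 and 495.1 in striatum, again without overlap (1.97 ± 0.32, adjusted p = 0.0013). Neurod1, a basic helix-loop-helix gene, differed by 2.17 ± 0.23 (adjusted p = 0.00028) and its relative Neurod6 by 1.05 ± 0.18 (adjusted p = 0.0014). Cux2 and Rorb, of upper layers and of layer 4, differed by 1.66 ± 0.17 (adjusted p = 0.00027) and 1.38 ± 0.12 (adjusted p = 0.00018). Tbr1, of layer 6, differed by 1.13 ± 0.15 (adjusted p = 0.00065) and Zbtb18 by 1.45 ± 0.17 (adjusted p = 0.00035). Fezf2, the determinant of subcortical projection neurons, had almost equal medians, 481.5 in cortex and 492.9 in striatum, and gave 0.14 ± 0.24 (adjusted p = 0.64). Pou3f1, an upper layer POU factor in that list, was the member higher in striatum (-0.72 ± 0.27, adjusted p = 0.044). Corrected, it did not pass (-0.48, adjusted p = 0.17) and Tle4 was the member called there.

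Of 23 other markers of cortical projection neurons tested, 6 were higher in cortex and 6 in striatum, close to the shares over all genes (24.2% and 25.5%), and 6 and 5 with 6 mice, with a median of 0.05 and of 0.01 with 6 mice. Slc17a7, the vesicular glutamate transporter of cortical neurons, had 18072, 24580 and 32492 in cortex and 6433.4, 16187 and 25386 in striatum. The cortex was higher in 8 of 8 mice, with overlapping ranges, by 0.79 ± 0.18 (adjusted p = 0.0055). Nrn1, a neuritogenesis factor, and Rasgrf2, a Ras exchange factor of upper layers, were higher in cortex without overlap, by 1.48 ± 0.17 (adjusted p = 0.00034) and 1.83 ± 0.27 (adjusted p = 0.00084). Crym, a thyroid hormone binding protein, and Pcp4, a calmodulin regulator, mark deep layers within the cortex. Crym had 658.0, 1434.0 and 3701.5 in cortex and 2145.6, 4283.4 and 5795.9 in striatum. Crym was higher in striatum in 8 of 8 mice (-1.25 ± 0.29, adjusted p = 0.0054), as was Pcp4 (-1.33 ± 0.26, adjusted p = 0.0026). Of the exons of Pcp4 23.7%, and of Nrn1 22.3%, lie under another gene.

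Genes of GABA-A receptor subunits, the chloride channels of fast inhibition, were higher in cortex for 8 of 15 and higher in striatum for 0. The shares over all genes were 24.2% and 25.5%, and the median of the list was 0.53. Without M754 and M761 the counts were 8 and 1 and the median 0.56. Corrected for GC content and length they were 4 and 1 with a median of -0.04. Gabrb2 and Gabra3 were among the 4 higher in cortex after correction, and Gabrg3 was the 1 higher in striatum. Gabrb2, a beta subunit gene, had 894.0, 3061.5 and 3880.5 in cortex and 179.7, 544.4 and 973.5 in striatum. The cortex was higher in 7 of 8 mice, M757 being the exception with 894.0 against 904.0. The difference was 2.48 ± 0.51 (adjusted p = 0.0034) and 2.21 corrected (adjusted p = 0.0072). Gabra3, an alpha subunit gene, differed by 1.04 ± 0.15 (adjusted p = 0.00076). Gabrd, the delta subunit of extrasynaptic receptors, gave -0.49 ± 0.23 (adjusted p = 0.096) with 8 mice and -0.80 with 6 (adjusted p = 0.0068).

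Among 18 ionotropic glutamate receptor subunits 6 were higher in cortex and 3 in striatum, beside 24.2% and 25.5% of all genes. The median was 0.06, and 6 and 0 were called with 6 mice and 3 and 4 after correction. Grin2a, an NMDA receptor subunit, had 4757.0, 6365.4 and 7974.5 in cortex and 1502.3, 2534.1 and 3259.7 in striatum, without overlap (1.33 ± 0.14, adjusted p = 0.00028; corrected 0.64, adjusted p = 0.0011). The AMPA receptor subunits differed in sign. Gria2 gave 1.10 ± 0.19 (adjusted p = 0.0015) and Gria1 -0.28 ± 0.10 (adjusted p = 0.033). Corrected, Gria2 was 0.08 (adjusted p = 0.31) and Gria1 -0.52 (adjusted p = 0.0022). Of 7 metabotropic glutamate receptors 3 were higher in cortex and 1 in striatum (2 and 1 with 6 mice). Grm4, of corticostriatal and indirect pathway terminals, was the latter, at -0.81 ± 0.14 (adjusted p = 0.0016), and Grm2 gave 0.83 ± 0.27 (adjusted p = 0.027).

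Of 38 monoamine, acetylcholine, opioid, adenosine and cannabinoid receptors, 13 were higher in cortex and 5 in striatum, beside 24.2% and 25.5% of all genes. The median was 0.27, and 0.12 with 6 mice, where 13 and 8 were called. The serotonin receptor gene Htr2a had 239.4, 535.2 and 769.3 in cortex and 26.4, 116.3 and 293.5 in striatum. Its cortex level was higher in 8 of 8 mice, by 2.11 ± 0.43 (adjusted p = 0.0030). The muscarinic receptor gene Chrm2 gave 0.99 ± 0.18 (adjusted p = 0.0020). The histamine receptor gene Hrh3 was higher in striatum in 8 of 8 mice (-0.76 ± 0.14, adjusted p = 0.0021).

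The cyclases and phosphodiesterases had members called in each direction, beside 24.2% and 25.5% of all genes. Of 9 adenylyl cyclases 4 were higher in cortex and 2 in striatum, with 8 mice and with 6, and the summed level of the family had almost the same median in both regions, 47060 in cortex and 47016 in striatum. Adcy1, the calmodulin-activated cyclase, had 12132, 22995 and 49972 in cortex and 5586.7, 9769.4 and 15243 in striatum (1.42 ± 0.24, adjusted p = 0.0014). Adcy5 went the opposite way, as given above. Per kilobase of exon, the mean level was 2067.5 in cortex and 759.3 in striatum for Adcy1, and 1530.3 and 3691.8 for Adcy5. Of 18 cyclic nucleotide phosphodiesterases 8 were higher in cortex and 3 in striatum (7 and 4 with 6 mice). The calmodulin-dependent pair also went opposite ways. Pde1a was higher in cortex without overlap, with 3932.3, 4734.1 and 5594.9 against 1116.2, 2331.1 and 2746.7 (1.15 ± 0.17, adjusted p = 0.00089), whereas Pde1b was higher in striatum. Lists of 16 RGS proteins (4 in cortex, 6 in striatum), 28 heterotrimeric G protein subunits (6 and 9) and 17 retinoic acid signalling genes (4 and 8) had calls in each direction, beside 24.2% and 25.5% of all genes. With 6 mice the counts were 4 and 6, 4 and 8, and 2 and 8. Their medians were -0.20, -0.14 and -0.39 and moved to -0.08, 0.04 and -0.08 with correction.

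Of 24 neuropeptide precursors 20 were tested, and 3 were higher in cortex and 5 in striatum (4 and 4 with 6 mice, 6 and 1 corrected). The shares over all genes were 24.2% and 25.5%. Penk, the precursor of enkephalin in Drd2 neurons, had 1396.3, 8902.9 and 17589 in cortex and 3562.2, 30828 and 62684 in striatum. The difference was -1.74 ± 0.47 (adjusted p = 0.012), and -2.19 with 6 mice (adjusted p = 0.0061). Tac1, the substance P precursor of Drd1 neurons, gave -0.90 ± 0.43 (adjusted p = 0.099), and Pdyn, the dynorphin precursor of the same neurons, -0.40 ± 0.29 (adjusted p = 0.28). Vip, on chromosome 10 (5639218 to 5647617), the vasoactive intestinal peptide of a class of cortical interneurons, had 752.9, 1090.0 and 1655.5 in cortex and 141.5, 453.0 and 1130.8 in striatum. Each of the 8 mice had more in cortex, by 1.45 ± 0.30 (adjusted p = 0.0034). The related Adcyap1, which encodes the cyclase-activating peptide PACAP, was so too (1.34 ± 0.40, adjusted p = 0.017), and Crh, the corticotropin-releasing hormone gene, gave 1.05 ± 0.35 (adjusted p = 0.030). Sst was higher in striatum (-0.66 ± 0.14, adjusted p = 0.0038) but gave -0.01 corrected (adjusted p = 0.87). Cck gave 0.28 ± 0.19 (adjusted p = 0.23), and 0.93 corrected (adjusted p = 0.0023).

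Promoters are shown for Vip and Adcyap1, higher in cortex, and for Tac1, a striatal peptide, since peptide genes of both regions carry the core of the cyclic AMP response element, TGACG, there. The letters TGACG, or CGTCA as they read from the other strand, are in capitals. Each window runs from 250 bases before to 50 after the start, from RefSeq on GRCm38.p6, on the plus strand, at chr10:5638968-5639267, chr17:93198767-93199066 and chr6:7554811-7555110.
Vip: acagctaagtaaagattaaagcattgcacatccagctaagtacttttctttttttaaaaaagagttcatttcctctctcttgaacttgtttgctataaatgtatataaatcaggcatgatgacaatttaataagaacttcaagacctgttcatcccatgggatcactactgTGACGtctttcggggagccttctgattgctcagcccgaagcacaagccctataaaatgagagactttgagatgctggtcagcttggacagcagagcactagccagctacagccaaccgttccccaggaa
Adcyap1: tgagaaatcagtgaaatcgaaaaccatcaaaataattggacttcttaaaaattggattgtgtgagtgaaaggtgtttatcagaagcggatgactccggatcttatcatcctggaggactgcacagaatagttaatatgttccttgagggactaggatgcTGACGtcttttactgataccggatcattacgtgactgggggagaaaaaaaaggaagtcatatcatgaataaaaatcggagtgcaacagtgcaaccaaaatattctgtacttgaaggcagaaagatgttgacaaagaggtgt
Tac1: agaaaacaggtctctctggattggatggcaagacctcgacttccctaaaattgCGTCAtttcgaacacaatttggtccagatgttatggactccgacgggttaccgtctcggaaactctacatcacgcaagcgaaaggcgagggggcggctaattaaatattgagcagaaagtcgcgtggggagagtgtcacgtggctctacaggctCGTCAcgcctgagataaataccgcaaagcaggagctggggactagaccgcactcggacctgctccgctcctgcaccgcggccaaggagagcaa
In Vip and Adcyap1 the match stands 1 time and in Tac1 2 times. Adcyap1 has 2 windows, and the window shown was picked for its number of matches, or as the first if equal. The motif was in 10 of 16 tested peptide precursors with a window in the table, in 4 of 20 genes of striatal dopamine and cyclic AMP signalling, and in 23% of all 27025 genes with a window. In the other lists the share ran from 0 (of 5 erythrocyte genes) to 85.7% (12 of 14 immediate early genes, a list given below). The motif is thus not particular to peptide genes. A match describes the letters in these windows and was not compared with any binding data.

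Genes of GABA synthesis and transport gave 1 call in each direction among 6, beside 24.2% of all genes toward cortex and 25.5% toward striatum. Gad1, which makes GABA, had 10160, 13257 and 15261 in cortex and 10424, 14053 and 20177 in striatum (-0.17 ± 0.11, adjusted p = 0.25), and Gad2 gave 0.13 ± 0.18 (adjusted p = 0.57). Slc32a1, the vesicular GABA transporter, had 1697.8, 2387.6 and 3724.2 in cortex and 3119.2, 4736.8 and 7104.2 in striatum. In 8 of 8 mice it was higher in striatum (-0.95 ± 0.10, adjusted p = 0.00023), with 24.9% of its exons under another gene. Of 17 interneuron genes 5 were higher in cortex and 2 in striatum (median 0.28), beside 24.2% and 25.5% of all genes. With 6 mice 5 and 3 were called. Of 8 cholinergic interneuron genes, 5 were higher in striatum and 0 in cortex with 8 mice (median -0.99), 4 and 0 with 6, and 0 and 0 corrected, where the median stayed at -0.75. The shares of all genes called higher in striatum were 25.5%, 16.6% and 18.2%. Chat, the acetylcholine-synthesizing enzyme, had 7.70, 131.5 and 537.8 in cortex and 3.93, 385.5 and 713.3 in striatum, M754 being the lowest striatum library (-1.22 ± 0.46, adjusted p = 0.045). Slc18a3, the vesicular acetylcholine transporter, was higher in striatum in 8 of 8 mice (-1.36 ± 0.39, adjusted p = 0.014).

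Oligodendrocyte genes were higher in striatum throughout the list. All 18 tested were called with 8 mice (median -1.22), with 6 mice (median -1.29) and after correction (median -1.05), beside 25.5%, 16.6% and 18.2% of all genes. For 8 of the 18 the regions did not overlap, beside 7.92% of all genes. Mbp, a structural protein of compact myelin, had 37729, 62290 and 83433 in cortex and 83119, 165070 and 236943 in striatum. Every mouse had more in striatum (-1.31 ± 0.14, adjusted p = 0.00028), M754 having the lowest library in each region. Mag, an adhesion protein of the inner myelin wrap, on chromosome 7 (30899176 to 30914873), had 2816.8, 4654.6 and 6483.4 in cortex and 6454.5, 12202 and 20167 in striatum (-1.44 ± 0.13, adjusted p = 0.00018). In the 3 litters Mag differed by -1.45, -1.78 and -1.34. Opalin, a myelin membrane protein, was higher in striatum without overlap, by -1.44 ± 0.14 (adjusted p = 0.00019). Of 8 precursor genes 2 were higher in cortex and 5 in striatum, beside 24.2% and 25.5% of all genes (0 and 5 with 6 mice, 0 and 6 corrected). Olig2, the lineage factor, had 494.6, 538.4 and 717.1 in cortex and 843.9, 1063.5 and 1399.6 in striatum (-0.94 ± 0.11, adjusted p = 0.00031).

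Of 18 astrocyte genes 6 were higher in cortex and 6 in striatum, and 5 and 4 with 6 mice. The shares over all genes were 24.2% and 25.5%, here and for the microglia and endothelial genes below. Aqp4, the water channel of astrocyte endfeet, had 3495.9, 5310.0 and 6078.1 in cortex and 1615.2, 2204.5 and 3651.3 in striatum (1.00 ± 0.17, adjusted p = 0.0015). The glutamate transporter Slc1a2 was higher in cortex in 8 of 8 mice (0.71 ± 0.14, adjusted p = 0.0023), and gave 0.10 corrected (adjusted p = 0.27). Gfap, the intermediate filament, was higher in striatum in 8 of 8 (-0.53 ± 0.12, adjusted p = 0.0048; corrected -0.23, adjusted p = 0.11). Of 12 microglia genes 1 was higher in cortex and 7 in striatum, with a median of -0.36, and 1 and 7 with 6 mice. Corrected, 1 and 2 were called, with a median of -0.04. Aif1, a calcium-binding protein, had 137.3, 175.8 and 234.7 in cortex and 241.6, 287.0 and 361.0 in striatum, without overlap (-0.72 ± 0.14, adjusted p = 0.0023; corrected -0.23, adjusted p = 0.11). P2ry12, the ADP receptor of resting microglia, was the member higher in cortex (0.74 ± 0.13, adjusted p = 0.0016; corrected 0.40, adjusted p = 0.012). Of 12 endothelial genes 4 and 3 were called, and 3 and 1 with 6 mice.

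Ependymal genes, of the ciliated cells that line the ventricles, were higher in striatum. Of 12 listed 11 were tested, and all 11 were called higher in striatum with 8 mice (median -1.62) and after correction (median -1.65), and 9 of 11 with 6 mice (median -1.51). The shares of all genes called so were 25.5%, 18.2% and 16.6%. The summed level was 471.2 to 786.9 in cortex and 830.1 to 5317.8 in striatum, so the ranges did not overlap, and M761 and M762 held the highest. Foxj1, the master factor of motile cilia, on chromosome 11 (116330704 to 116335399), had 132.2, 164.1 and 202.6 in cortex and 277.0, 453.1 and 786.7 in striatum (-1.55 ± 0.18, adjusted p = 0.00035). Tmem212 differed by -3.08 ± 0.57 (adjusted p = 0.0021) from a median of 14.3 in cortex and 92.8 in striatum. Ccdc153, an axonemal coiled-coil protein, had 14.3, 26.9 and 52.2 in cortex and 32.4, 196.7 and 866.8 in striatum. All 8 mice had more in striatum (-3.01 ± 0.42, adjusted p = 0.00075), by -3.96, -3.53 and -2.02 in the 3 litters. Dynlrb2, a dynein light chain, differed by -2.28 ± 0.35 (adjusted p = 0.0010).

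The promoters of Ccdc153 and Dynlrb2 are shown because these genes moved together with the rest of the list and both windows hold GTTGCC, a motif bound by the RFX factors of ciliated cells. The motif, or GGCAAC from the other strand, is in capitals. The windows are RefSeq on GRCm38.p6, plus strand, at chr9:44240427-44240726 and chr8:116504765-116505064.
Ccdc153: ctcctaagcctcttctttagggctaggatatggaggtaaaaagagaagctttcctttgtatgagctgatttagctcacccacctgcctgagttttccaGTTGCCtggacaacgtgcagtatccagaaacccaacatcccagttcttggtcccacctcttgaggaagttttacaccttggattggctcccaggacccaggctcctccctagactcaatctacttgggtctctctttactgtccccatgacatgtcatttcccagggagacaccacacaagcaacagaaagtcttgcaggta
Dynlrb2: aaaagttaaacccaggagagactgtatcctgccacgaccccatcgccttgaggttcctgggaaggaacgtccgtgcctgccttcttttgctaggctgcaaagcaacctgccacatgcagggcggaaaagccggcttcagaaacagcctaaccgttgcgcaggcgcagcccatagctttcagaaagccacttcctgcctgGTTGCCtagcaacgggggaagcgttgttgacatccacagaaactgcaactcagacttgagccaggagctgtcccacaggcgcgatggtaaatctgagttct
Each held 1 match. Of 8 tested ependymal genes with a window 4 held the motif, beside 14.1% of all genes with a window. In the other lists the share ran from 0 (as in 16 neuropeptide precursors) to 66.7% (2 of 3 vesicular glutamate transporters). It was 60% in the erythrocyte list (3 of 5). This is a description of the letters and says nothing of binding.

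Genes of neuroblasts and dividing progenitors, which the zone beside the ventricle holds, were mostly higher in striatum. Of 10 tested 6 were higher in striatum and 1 in cortex (5 and 1 with 6 mice, 6 and 0 corrected). The shares over all genes were 25.5% and 24.2%. Mki67, of dividing cells, had 35.4, 63.8 and 78.8 in cortex and 69.3, 205.2 and 398.4 in striatum (-1.72 ± 0.24, adjusted p = 0.00069). Top2a, the topoisomerase of dividing cells, was higher in striatum without overlap (-1.95 ± 0.18, adjusted p = 0.00018), as were Igfbpl1 (-2.65 ± 0.29, adjusted p = 0.00031) and Cd24a (-1.38 ± 0.15, adjusted p = 0.00031). Dcx, of migrating neurons, was the member higher in cortex (0.66 ± 0.22, adjusted p = 0.026), with its highest library, 3630.0, in the striatum of M754. Corrected, its difference was -0.11 (adjusted p = 0.66).

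Choroid plexus genes moved with single libraries. Their summed level was 721.8 to 7415.2 in cortex, and in striatum it was 187887 in M751, 121648 in M762, 16915 in M761 and between 694.9 and 2674.0 in the other 5 libraries. Ttr, the transthyretin gene that dominates the list, gave -2.41 ± 1.08 (adjusted p = 0.086). Folr1 gave -2.61 ± 0.94 (adjusted p = 0.039) with 8 mice and -2.86 with 6 (adjusted p = 0.098). Of the 12 genes, 3 were called higher in striatum with 8 mice and 1 with 6, and 0 in cortex. The shares of all genes called higher in striatum were 25.5% and 16.6%. Meningeal genes were higher in cortex for 8 of 12 and in striatum for 0 (median 1.10), beside 24.2% and 25.5% of all genes. With 6 mice 9 were higher in cortex, and corrected 6 were. Slc22a6, an organic anion transporter of meningeal cells, had 155.3, 252.7 and 481.2 in cortex and 20.9, 89.6 and 275.1 in striatum (1.77 ± 0.33, adjusted p = 0.0022). The proteoglycan Dcn was likewise higher in cortex in 8 of 8 mice (1.11 ± 0.20, adjusted p = 0.0016) and gave 0.44 corrected (adjusted p = 0.14). Of 5 erythrocyte genes 4 were higher in striatum, and 0 corrected, beside 25.5% and 18.2% of all genes. Hbb-bs, a beta globin, gave -0.66 ± 0.14 (adjusted p = 0.0032) and -0.11 corrected (adjusted p = 0.28).

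Marker lists of neighbouring structures were counted in the same way, beside 24.2% of all genes toward cortex and 25.5% toward striatum. Of 10 thalamic genes 0 were higher in cortex and 1 in striatum, of 10 septal and pallidal genes 1 and 1, of 11 hippocampal genes 2 and 2, of 6 claustral genes 3 and 0, and of 3 hypothalamic genes tested 0 and 2. With 6 mice these counts were 0 and 0, 1 and 1, 1 and 2, 3 and 0, and 0 and 1. The summed thalamic level was 2524.0 to 3460.0 in cortex and 1687.9 to 13908 in striatum, highest in M762 and M761. The septal and pallidal sum was 2237.2 to 4676.3 in cortex and 1933.0 to 12085 in striatum, highest in M761. Slc17a6, the glutamate transporter of thalamic neurons, gave 1.41 ± 0.62 (adjusted p = 0.080). The part of these neighbours in the results was not tested.

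**Figure D4:**
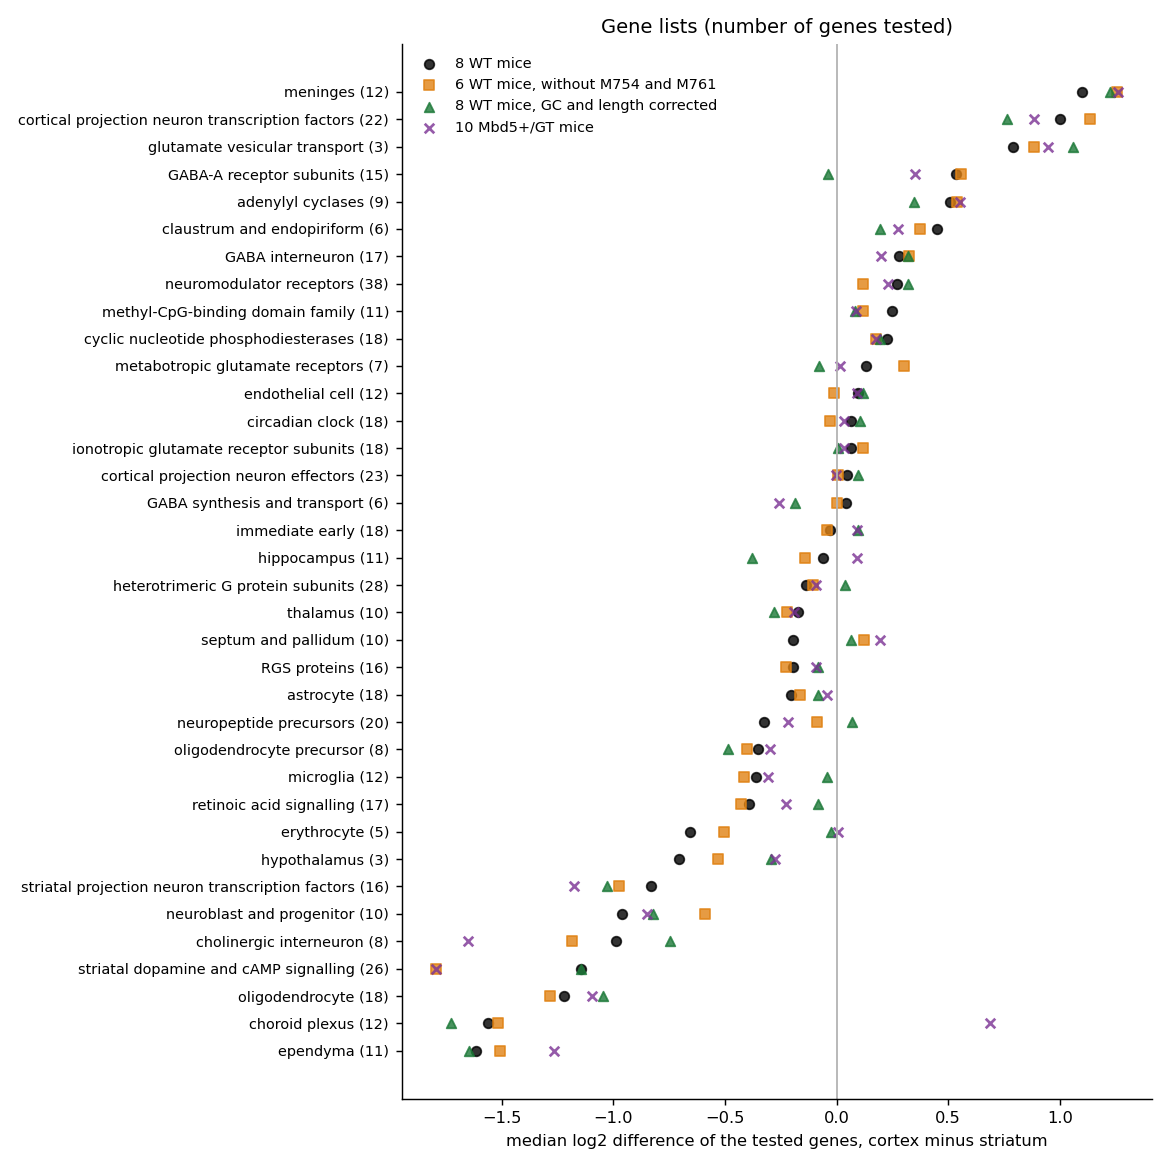
Median log2 difference, cortex minus striatum, of the tested genes of each of 36 lists, with the number tested in brackets, for 8 WT mice (circles), 6 WT mice (squares), 8 WT mice after GC and length correction (triangles) and 10 Mbd5+/GT mice (crosses). Lists run from ependyma at -1.62 to meninges at 1.10, the GABA-A subunits move from 0.53 to -0.04 with correction, and the striatal signalling genes move from -1.15 to -1.79 without M754 and M761.

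Of 18 immediate early genes, which neuronal activity induces, 2 were higher in cortex and 3 in striatum (2 and 2 with 6 mice), below the shares over all genes of 24.2% and 25.5%. Homer1 was higher in cortex without overlap (0.93 ± 0.17, adjusted p = 0.0018; corrected 0.13, adjusted p = 0.45) and Egr4 higher in striatum in 8 of 8 mice (-0.92 ± 0.17, adjusted p = 0.0022). Of 18 clock genes, which cycle over the day, 7 and 2 were called (6 and 3 with 6 mice). Dbp, an output of the clock, had 1368.1, 1901.1 and 3448.7 in cortex and 2097.5, 3652.2 and 6450.4 in striatum (-0.84 ± 0.17, adjusted p = 0.0029; corrected -0.37, adjusted p = 0.083). Bhlhe40, a repressor of the clock, was higher in cortex in 8 of 8 mice (0.86 ± 0.14, adjusted p = 0.0013).

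Of 11 genes with a methyl-CpG-binding domain or in its family, 5 were higher in cortex and 3 in striatum. The shares over all genes were 24.2% and 25.5%. The median of the list was 0.25 (0.12 with 6 mice and 0.08 corrected). Mbd5 itself, on chromosome 2 (48949508 to 49325405), had 1418.9, 1982.8 and 2232.2 in cortex and 1087.1, 1424.5 and 1837.6 in striatum. The difference was 0.42 ± 0.13 (adjusted p = 0.022), higher in cortex in 6 of 8 mice. It was 0.29 with 6 mice (adjusted p = 0.12) and -0.08 corrected (adjusted p = 0.34). Mbd3 gave -0.66 ± 0.13 (adjusted p = 0.0026; corrected -0.15, adjusted p = 0.071).

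The genes with the largest differences were taken among protein-coding genes with an adjusted p under 0.05, a mean normalized count of at least 200 in the higher region and the same direction in 8 of 8 mice. There were 1284 such genes higher in cortex and 1387 higher in striatum. The 15 at the cortical end ran from 2.01 to 2.92, and the 15 at the striatal end from -3.01 to -1.75. The limit of 8 of 8 mice left out genes with differences inside these ranges. Among them were Drd2, which went the other way in M761, and Gabrb2, which did so in M757.

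At the cortical end, Igfn1, an immunoglobulin and fibronectin domain gene on chromosome 1 (135953578 to 136006342), had 1193.8, 1931.2 and 2902.8 in cortex and 88.7, 275.2 and 653.0 in striatum, without overlap (2.72 ± 0.36, adjusted p = 0.00062). Plcxd2, a phospholipase domain gene, had 3691.7, 4017.1 and 7860.0 in cortex and 240.2, 938.9 and 1542.4 in striatum (2.46 ± 0.29, adjusted p = 0.00043). Channel genes among them were Kcnj6, a G protein-gated potassium channel (2.12 ± 0.34), and Kcnt2, a sodium-activated one (2.02 ± 0.28). Matrix and adhesion genes were the meningeal Ogn (2.25), the collagen Col19a1 (2.24) and the cadherin Cdh12 (2.26). Palm2 stood highest at 2.92 ± 0.52, but 39.1% of its exons overlap another gene, so its counts are uncertain. The remaining members were Exph5 (2.54), Tmem215 (2.32), Tmem196 (2.26), Neurod1, Htr2a, Tspan11 (2.08) and Ranbp3l (2.01).

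At the striatal end stood genes of motile cilia, namely Ccdc153, the adenylate kinase Ak7 (-2.13 ± 0.35) and Lrrc23 of the radial spoke (-2.10 ± 0.35). The protease gene Klk6, of oligodendrocytes, stood there too (-1.87 ± 0.24). Trf, the transferrin gene, gave -2.15 ± 0.26, but 63.5% of its exons overlap another gene. Thbs4, an astrocytic thrombospondin of the ventricular zone, had 43.8, 96.3 and 293.5 in cortex and 315.4, 578.2 and 1598.4 in striatum, without overlap (-2.63 ± 0.34, adjusted p = 0.00057). Necab2, a neuronal calcium-binding partner of Adora2a, had 454.4, 1464.6 and 2679.1 in cortex and 2075.8, 5645.4 and 9153.8 in striatum (-1.86 ± 0.26, adjusted p = 0.00069). Ano2, a calcium-activated chloride channel, stood among them, as did the adaptor Shb (-1.81 ± 0.16). Eomes, a T-box gene, had medians of 15.7 in cortex and 66.2 in striatum with highest libraries of 500.6 and 1152.4 (-1.87 ± 0.43, adjusted p = 0.0053). Igfbpl1, Top2a, Lbp (-1.78) and Spint1 (-1.75) were also in the group.

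**Figure D5:**
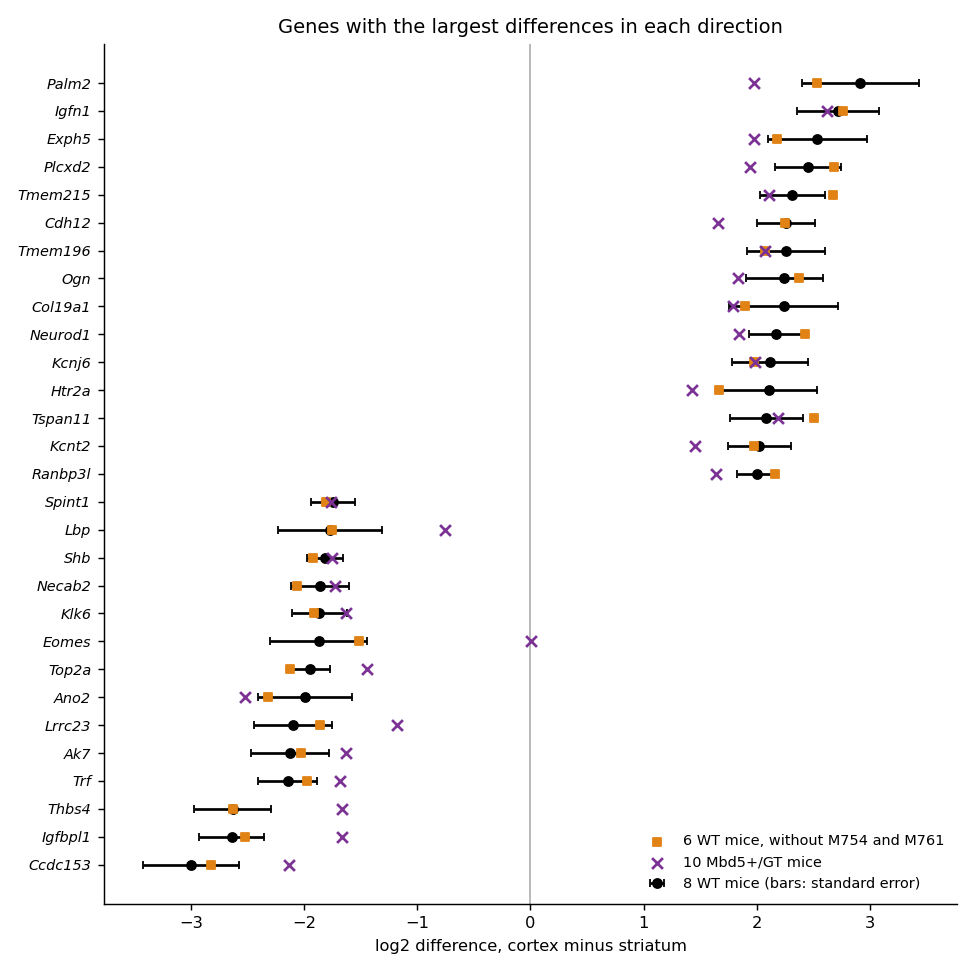
Log2 difference, cortex minus striatum, of 15 genes at the cortical and 14 at the striatal end, as circles with standard error bars for 8 WT mice, squares for 6 WT mice and crosses for 10 Mbd5+/GT mice. With 6 WT mice the values ran from 2.76 for Igfn1 to -2.82 for Ccdc153. Their direction there was set by choosing genes with the same direction in 8 of 8 mice. In Mbd5+/GT mice all but Eomes kept their direction, and Eomes lay at 0.00.

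Per kilobase of exon, mitochondrial transcripts had the highest mean levels in both regions. mt-Co1, of cytochrome c oxidase, led with 430943 in cortex and 296877 in striatum and was higher in cortex in 8 of 8 mice (0.56 ± 0.12, adjusted p = 0.0034). mt-Cytb and mt-Nd1 followed among protein-coding genes in each. In striatum Gm42418, a ribosomal RNA locus of which 99.5% overlaps another gene, stood at rank 3, with a count of 2822016 in the library of M752 beside a median of 52693 over the 8 striatum libraries.

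The same contrast was fitted in the 10 Mbd5+/GT mice, which were not used for WT. There 4181 of 18796 genes were higher in cortex (22.2%) and 4265 in striatum (22.7%), 44.9% in all. Of 18354 genes tested in both genotypes, 7032 were called in both in the same direction and 0 in opposite directions. These were 76.7% of the WT calls and 84.1% of the Mbd5+/GT calls. Of 1782 WT calls of at least 2-fold, 1526 (85.6%) were called there. These overlaps are between fits without correction for GC content and length. Corrected, 3683 genes were higher in cortex and 3639 in striatum in the Mbd5+/GT mice. The part of GC content and length in the overlap was not tested. In the Mbd5+/GT mice 25 of 26 signalling genes (median -1.79) and 15 of 16 striatal transcription factors (median -1.18) were higher in striatum. The 6 WT mice gave 23 of 26 (median -1.79) and 13 of 16 (median -0.97). All 18 oligodendrocyte genes (median -1.10) and 10 of 11 ependymal genes (median -1.27) were again higher in striatum. Drd2 differed by -2.86 (adjusted p = 0.00013) and Mef2c by 1.41 (adjusted p = 0.00014). Choroid plexus genes changed sign, with a median of 0.69 against -1.56, and Ttr gave 0.08 (adjusted p = 0.96). The Mbd5+/GT libraries fall under the same statement on collection days, so this comparison does not separate region from day. Whether the regional difference depends on genotype was not tested here.

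Whether the difference between the regions depended on sex was tested as an interaction in the 5 female and 3 male mice. Of the males, M751 and M752 are the mice with repeated striatum libraries and M765 is the only mouse of its litter, while the 3 mice of litter 1 are female, so sex cannot be told apart from these. No gene passed by edgeR's quasi-likelihood test (0 of 18490 at an adjusted p under 0.05, 833 at an unadjusted p under 0.05, smallest adjusted p 0.79), whereas DESeq2 gave 17. Without M754 and M761 the quasi-likelihood test again gave 0, with 394 at an unadjusted p under 0.05. All 17 had the larger cortical excess in males. The leading gene of these was Slc17a6 (interaction 3.44 on the log2 scale, adjusted p = 4.4e-07 by DESeq2 and 0.79 by the quasi-likelihood test). In the striatum its count was 2735.4 in M762 and 978.5 in M761, both female, which were also the libraries with the highest summed thalamic markers (13908 and 8384.2, beside 1687.9 to 3649.3 in the others). Slc17a6 is itself a member of that list, so these sums include its counts. The part of that neighbour in the interaction was not tested.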

How the data were processed

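Raw read counts per gene of 16 libraries were taken from the deposited table of 47069 genes and 92 ERCC spike-ins. Per the labels and the methods, the authors checked reads with FastQC 0.10.1 and aligned and counted them with STAR 2.4.2 against GRCm38. The strand setting is not given in the sources used here, so overlapping genes are uncertain. Gene names came from GENCODE M21, which named 46488 IDs. Groups followed the labels, and libraries were paired by mouse, since both came from the same animal (deviations of the 2 libraries of a mouse correlated from -0.39 to 0.55, median 0.03). Genes were kept if at least 8 libraries held over 4 counts, and were tested with edgeR 4.0.16 (R 4.3.3, TMM, quasi-likelihood, mouse plus region, Benjamini-Hochberg). The correction for GC content and length, those of the longest annotated transcript, used a lowess curve (span 0.3) per library, as an offset. DESeq2 1.42.0 and sva 3.50.0 served as alternatives. The test was checked on simulated data, and none of the 56 pairs of libraries within a region agreed within sampling noise. Per-mouse and per-litter log2 values used an offset of 0.5. Reads limit precision by counting error, and the p-values measure the spread between mice. The gene lists, and the members shown, were chosen with earlier results of these data known. Named genes were the 15 largest differences in each direction under the limits stated, members of the lists, Mbd5, and the 5 genes of highest mean level per kilobase in each region. List genes not tested (Oxt, Avp, Hcrt, Ucn, Grm6, Mia, Agrp, Sim1, Nkx2-4, Otp) fell below the filter, and Gpr52, Ctgf, Tac3 and Pde2a were not matched. Some members are not reported here.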

Additional observations from a re-analysis of the deposited data

Results flagged for a closer look

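Of 234 groups of 8 libraries examined (117 named genes in 2 regions), 17 had a highest or lowest library whose gap to its neighbour, as a share of the range on the log2 scale, was above Dixon's critical value of 0.526. Chance flags about 1 in 20 groups. In the striatum, M754 was the lowest library for Pdyn (0.673), Six3 (0.824), Chat (0.825), Slc18a3 (0.683), Ano2 (0.798), Necab2 (0.578) and Spint1 (0.627), and the highest for Dcx (0.543). M761 was the lowest in striatum for Meis2 (0.598) and Grin2a (0.558), and M752 for Nrn1 (0.596). M757 was the highest in striatum for Gria2 (0.547) and P2ry12 (0.595). In the cortex it was the highest for Olig2 (0.675) and Lbp (0.564). Also in the cortex, M761 was the lowest for Tmem212 (0.547) and M751 the lowest for Ogn (0.570).

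ERCC spike-in RNA, which is in the table but in no comparison of genes, made up a median of 0.517% of the striatum libraries and 0.0760% of the cortex libraries.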

How the results depend on the processing

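Striatum libraries of M754 and M761 went against their label by striatal signalling genes, and the differences tilt with GC content and length. If the regions were collected on different days, region cannot be told apart from collection day. The alternatives without M754 and M761 and with GC and length correction were chosen after seeing the data. Leaving out each mouse in turn gave 3683 to 4902 genes higher in cortex, 3552 to 5067 higher in striatum, and 902 to 1411 and 573 to 833 of at least 2-fold. Without the replicate block that pairs the libraries by mouse, 4652 and 5200 genes were called, and 3979 and 4341 in Mbd5+/GT mice.

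Genes higher in cortex numbered 2876 with correction and 6 mice, 2432 in females, 1366 in males and 2474 without the mice with repeated libraries. Genes higher in striatum numbered 2763, 1883, 854 and 2249 in the same order, and 3068 with 6 mice. Counts of at least 2-fold toward cortex were 615 with correction and 6 mice, 608 without the mice with repeated libraries and 670 when every library had to hold 10 counts, where striatum gave 313 and fewer genes were tested. DESeq2 gave 17 genes for region by sex against 0. The cause of the other shifts was not tested.

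With correction, list medians became -0.038 for GABA-A subunits, 0.0367 for G protein subunits, -0.0821 for retinoic acid signalling, -0.485 for oligodendrocyte precursors, -0.0417 for microglia and -0.0251 for erythrocytes. With correction and 6 mice they were 0.27 for neuropeptides, -0.00323 for G protein subunits, -0.0221 for erythrocytes, -0.47 for hippocampus and -0.47 for neuroblasts. In males they were -0.0302 for G protein subunits, -1.54 for oligodendrocytes, -0.47 for their precursors, 0.0635 for astrocytes and 0.71 for septum and pallidum. Without the replicate block G protein subunits gave -0.21.

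Of 2568 values for single genes, 13 changed sign. Foxp1 became 0.28 in females, 0.0206 with surrogate variables, 0.0832 without the mice with repeated libraries and from -0.38 to 0.0434 with 1 mouse left out, M752 giving the latter. Fezf2 became -0.04 with surrogate variables and ran from -0.0536 (without M762) to 0.32 with 1 mouse left out. Gad1 became 0.105 in males. Gad2 became -0.0283 in females, -0.30 with correction and -0.32 with correction and 6 mice. Dcx became -0.11 with correction, and Mbd5 -0.0817, or -0.16 with 6 mice as well. Of the rest, 2313 kept direction and side of the threshold, 197 no longer passed it and 45 newly passed.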
